A study of Homo sapiens with 4 samples.

Results

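The report concerns N6-methyladenosine (m6A) sites in 10 genes that restrain signalling from RAS to ERK: DUSP1, DUSP4, DUSP5, DUSP6, DUSP7, SPRY1, SPRY2, SPRY4, SPRED1 and SPRED2. The genes were taken as known feedback regulators of this pathway, and a site was counted for a gene when it lay in an annotated exon of that gene on its strand. Of 18789 sites in the list, 49 lay in 7 of the 10 genes, and DUSP6, SPRY1 and SPRED1 had none. For comparison, 19.7% of all 20020 annotated protein-coding genes, expressed or not, had at least 1 site. All 49 sites lay in exons of the chosen transcripts, with 0 in introns, 0 on the opposite strand and 0 in an exon of another gene on that strand.

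The cells were untreated, wild-type C643, a cell line established from a human anaplastic carcinoma of the thyroid. Fragments of poly(A)+ RNA were linked by ultraviolet light to an antibody against m6A and precipitated with it (miCLIP2), and reverse transcription stopped at the crosslinked base. There was 1 group of 3 biological replicates, sequenced as 4 libraries since replicate 1 had 2 technical libraries, and all were pooled into 1 list of sites. A machine learning model, m6Aboost, gave each peak at an adenosine a prediction score, and all listed scores were at least 0.5. The spread between replicates and the number of reads behind a site are therefore unknown, and neither a METTL3-depleted control nor RNA levels were analysed here. A gene can lack sites through lack of methylation or through too few reads, and the list cannot tell these apart. Intervals are 95% Wilson intervals over sites or motifs. They cover counting only, and sites of 1 transcript share their source.

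ERK is activated by phosphorylation downstream of RAS, RAF and MEK, and active ERK raises the transcription of genes whose proteins switch the pathway off again. Dual-specificity phosphatases (DUSP) remove phosphate from MAP kinases. The inducible DUSP1, DUSP4 and DUSP5 act in the nucleus, and DUSP6 and DUSP7 act on ERK in the cytoplasm. Sprouty (SPRY) and Sprouty-related (SPRED) proteins act upstream, between growth factor receptors and RAF, and SPRED proteins bring the RAS inactivator neurofibromin to the membrane. In messenger RNA, m6A is written mainly at DRACH (D is A, G or T; R is A or G; H is A, C or T), often in long exons and near the stop codon.

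The highest-scoring site of each gene other than DUSP4 is shown first, as the site that the model scored best in that gene. Each window has the 21 nt that m6Aboost reads around a site, in GRCh38, 5′ to 3′ on the strand of the gene, with the pentamer centred on the listed A in capitals.
DUSP1, 3′ UTR, chr5:172768499-172768519, minus strand, score 0.911: aagagaaaGGACTcagtgtgt
DUSP5, 3′ UTR, chr10:110511063-110511083, plus strand, score 0.970: ctgaccttGGACTttggcatg
DUSP7, 3′ UTR, chr3:52049336-52049356, minus strand, score 0.946: aggtgtcaGGACTgcatgggg
SPRY2, coding sequence, chr13:80337453-80337473, minus strand, score 0.717: aacacgagAGACTccacggtc
SPRY4, coding sequence, chr5:142314576-142314596, minus strand, score 0.906: atccccccGGACGttgccttc
SPRED2, coding sequence, chr2:65313939-65313959, minus strand, score 0.788: ccctacgtGGACTcctcagac
In DUSP1, DUSP5 and DUSP7 the best site was a GGACT in the 3′ UTR. In SPRY2, SPRY4 and SPRED2 it was in the coding sequence, and that of SPRY4 was a GGACG, which is outside DRACH.

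The number of sites differed widely between the genes. SPRY4 held 15, DUSP5 held 10, DUSP7 held 8, DUSP4 held 7, DUSP1 held 6, SPRED2 held 2 and SPRY2 held 1. Over the 3845 genes with exonic sites in the list the median was 3, with quartiles of 2 and 7, and 96.1% of these genes had fewer sites than SPRY4. Per kb of transcript, DUSP5 had 4.04 sites, SPRY4 3.04, DUSP1 2.98, DUSP7 2.38, DUSP4 1.26, SPRED2 0.443 and SPRY2 0.369. Thus the 4 phosphatases with sites and SPRY4 carried 46 of the 49 sites, and the remaining Sprouty and SPRED genes were nearly or wholly without.

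**Figure D1:**
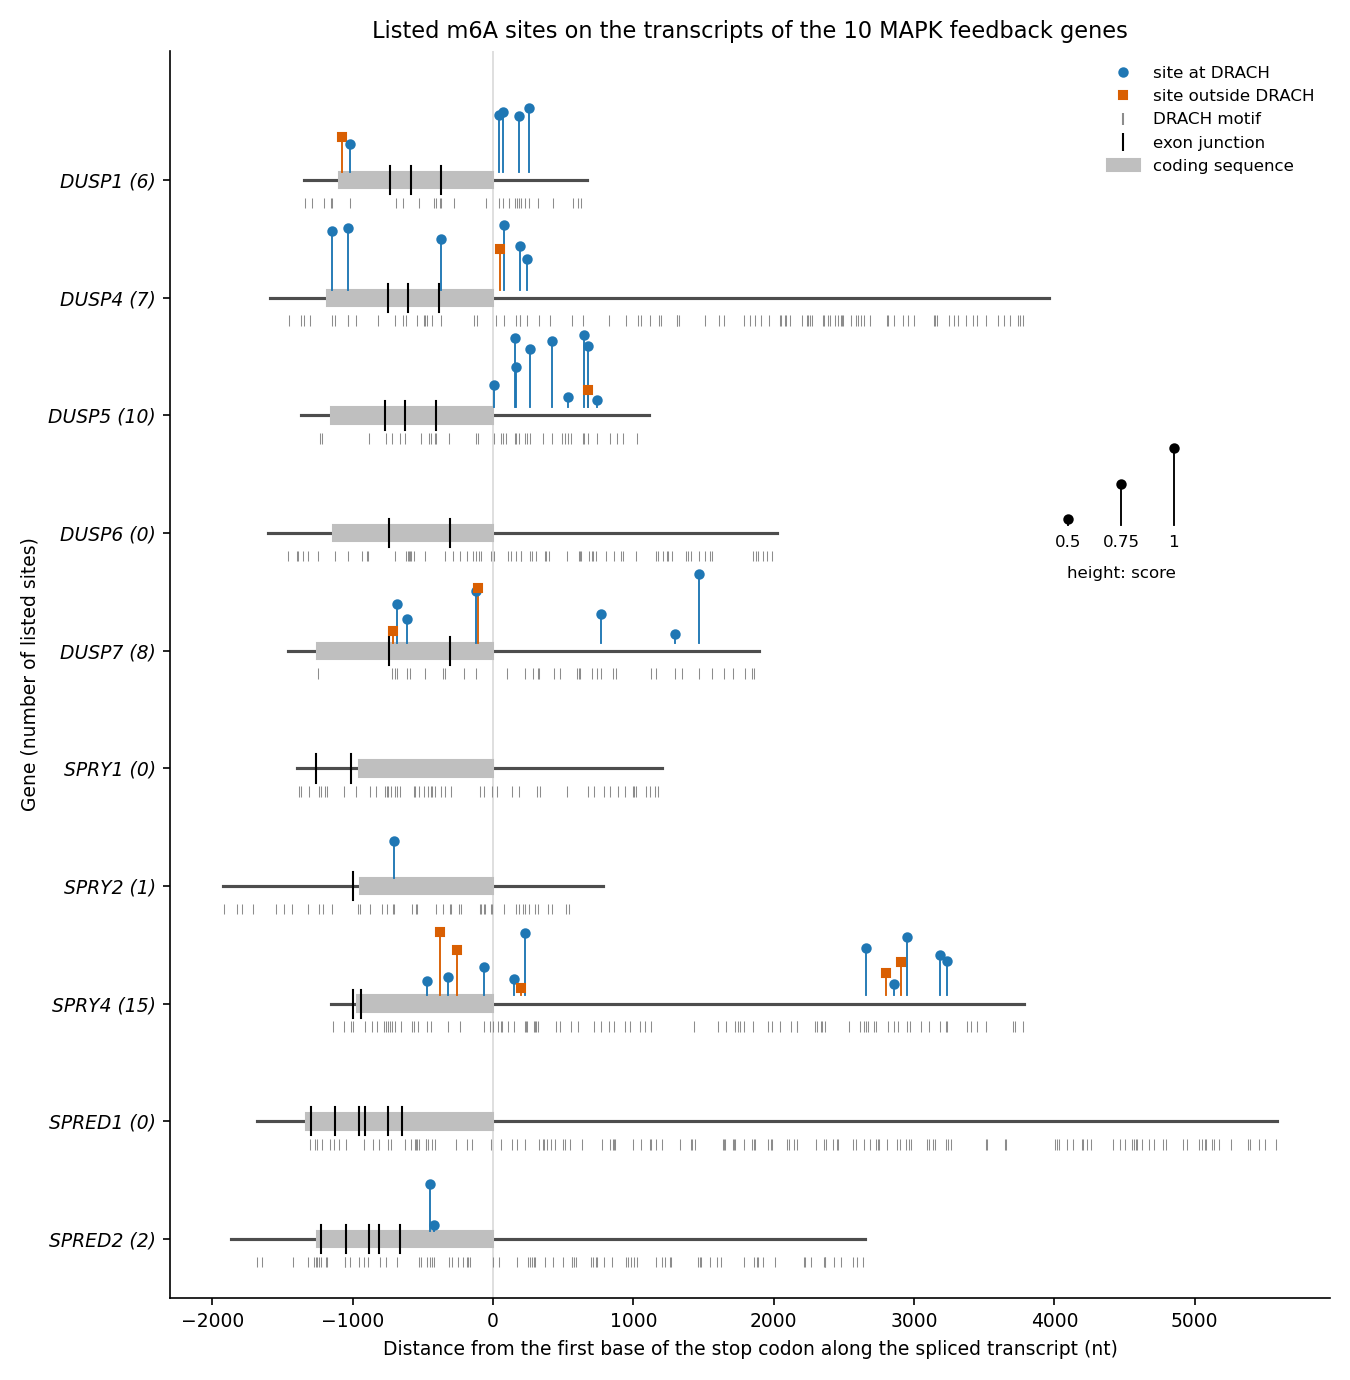
Spliced transcripts of the 10 genes aligned at the first base of the stop codon (x axis, nt), with coding sequence as boxes, junctions as black ticks, DRACH motifs as grey ticks and listed sites as pins whose height is the score. The pins of DUSP5 all stand in the 3′ UTR, SPRY4 has a separate group 2659 to 3236 nt after the stop codon, and DUSP6, SPRY1 and SPRED1 carry DRACH motifs but no pin.

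DUSP1, an immediate early phosphatase that acts on ERK, p38 and JNK, lies on chromosome 5 from 172768096 to 172771195 on the minus strand. Its 4-exon transcript held 2 sites in the first exon and 4 in the 3′ UTR, which lies in the last exon. The coding sites scored 0.705 at codon 9 and 0.655 at codon 28. The 3′ UTR sites, at 41, 73, 182 and 255 nt after the first base of the stop codon, scored 0.859, 0.883, 0.856 and 0.911. All 4 sites of the 3′ UTR thus scored above both coding sites, and 3 of the 4 GGACT pentamers of the transcript were listed. The coding exons between the first exon and the stop codon held no site, and 8 of its 10 coding DRACH motifs are within 100 nt of an exon junction, where 2.43% of the motifs of all coding host transcripts were listed.

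DUSP5, a nuclear phosphatase that acts on ERK alone, lies on chromosome 10 from 110497907 to 110511533 on the plus strand. All of its 10 sites were in the 3′ UTR, 4 to 744 nt after the first base of the stop codon. Of its DRACH motifs in the 3′ UTR 9 of 24 were listed (37.5%), and of those in the coding sequence 0 of 13, of which 9 are within 100 nt of a junction. In the first 200 nt after the stop codon 3 of 7 were listed, against 25.4% over all host transcripts. From 201 to 1000 nt it was 6 of 16, against 11.9%, and only 1 motif lies farther. Over the whole transcript 23.1% of the motifs were listed (9 of 39, 12.6 to 38.3), a larger share than in 92.7% of the 3579 coding host transcripts (chosen transcripts that carry a listed site) with at least 10 motifs. That rank takes no account of how far the motifs of each transcript lie from the stop codon. The scores covered nearly the whole range of the list. The highest, 0.970 at a GGACT 649 nt after the stop codon, exceeded 99.1% of all listed sites, and the lowest, 0.513 at an AGACC 744 nt after it, exceeded 2.24%.

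All 3 GAACT pentamers of DUSP5 were listed, at 154, 423 and 678 nt after the stop codon, with scores of 0.949, 0.926 and 0.893. Each was above the median of 0.843 of the 1880 GAACT sites in the list. The last has a listed neighbour 1 nt before it, at 110511101, where the pentamer is TGAAC and the score 0.577. Such pairs at adjacent bases were rare, with 73 in the whole list. The pair stands in the same stretch of sequence, shown for both sites on the plus strand of GRCh38 with each pentamer in capitals.
DUSP5 non-DRACH site, chr10:110511091-110511111, score 0.577: gtcatactTGAACttgtctca
DUSP5 DRACH site, chr10:110511092-110511112, score 0.893: tcatacttGAACTtgtctcat
Within 28 nt before this pair lay the highest-scoring site of the gene, so that 3 listed bases fell between 649 and 678 nt after the stop codon.

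DUSP7, the cytoplasmic ERK phosphatase closest in sequence to DUSP6, lies on chromosome 3 from 52048919 to 52056571 on the minus strand. It held 5 coding sites and 3 sites in the 3′ UTR. The second exon carried 3 of the coding sites, a GTACT (0.539), a GGACA (0.729) and a TGACT (0.626), at 28, 55 and 127 nt from the nearest junction. The last exon carried a GGACT (0.822) and a GGACG (0.847) only 11 nt apart, 119 and 108 nt before the stop codon. In the 3′ UTR the sites were far from the stop codon, at 770, 1300 and 1471 nt, with scores of 0.662, 0.518 and 0.946. The most distant of the 3 was thus the highest-scoring site of the gene, above 97.2% of the list.

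DUSP6, the ERK phosphatase often read as a measure of pathway activity, had no listed site. Its transcript of 3627 nt holds 72 DRACH motifs, 6 of them GGACT, in 3 exons. DUSP6 and DUSP7 share 71.2% of aligned residues, and the DUSP7 pair of sites in the last exon falls on DUSP6 codons that keep both pentamers. The stretches are shown over 10 codons each in GRCh38, on the minus strand, with both pentamers in capitals.
DUSP7, codons 377 to 386, both listed, chr3:52050917-52050946: cagctgctGGACTttgagcGGACGctgggg
DUSP6, codons 339 to 348, neither listed, chr12:89349356-89349385: cagctgctGGACTtcgagaGGACGctggga
Of the 30 bases 27 are identical. The TGACT of DUSP7 codon 215 also has a TGACT at the aligned DUSP6 codon 175, again not listed. The sequence at these places is therefore shared, and the listing is not. How much of either RNA the libraries contained was not analysed here.

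A different picture was seen for DUSP1 and DUSP4, which share 64.0% of aligned residues. Both DUSP1 coding sites fell on codons of DUSP4 that also held a listed site, at the same base of the codon. DUSP1 codon 9 (GGACG, 0.705) aligned with DUSP4 codon 11 (GGACT, 0.872), and DUSP1 codon 28 (GGACT, 0.655) aligned with DUSP4 codon 49 (GGACT, 0.897). DUSP4 scored higher at both places. DUSP5, which shares 52.2% of aligned residues with DUSP1 and 52.3% with DUSP4, has CGACG and CGACT at the same places, both outside DRACH and neither listed. The second place is shown over 10 codons of DUSP1 and DUSP5 in GRCh38, with the pentamer in capitals.
DUSP1, codons 24 to 33, minus strand, listed, chr5:172770854-172770883: tgcctgctgctGGACTgccgctccttcttc
DUSP5, codons 23 to 32, plus strand, not listed, chr10:110498188-110498217: tgcgtggtgctCGACTgccggccctatctg
Of these 30 bases 21 are identical. Among the families compared, these 2 places were the only ones with a listed site in both paralogs. Few pairs could show such a place, since SPRY1, SPRED1 and DUSP6 had no site and DUSP5 had no coding site. Besides DUSP1 and DUSP4, only SPRY2 and SPRY4 both had coding sites. The third coding site of DUSP4, at codon 271, faces a GAATG in DUSP1.

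**Figure D2:**
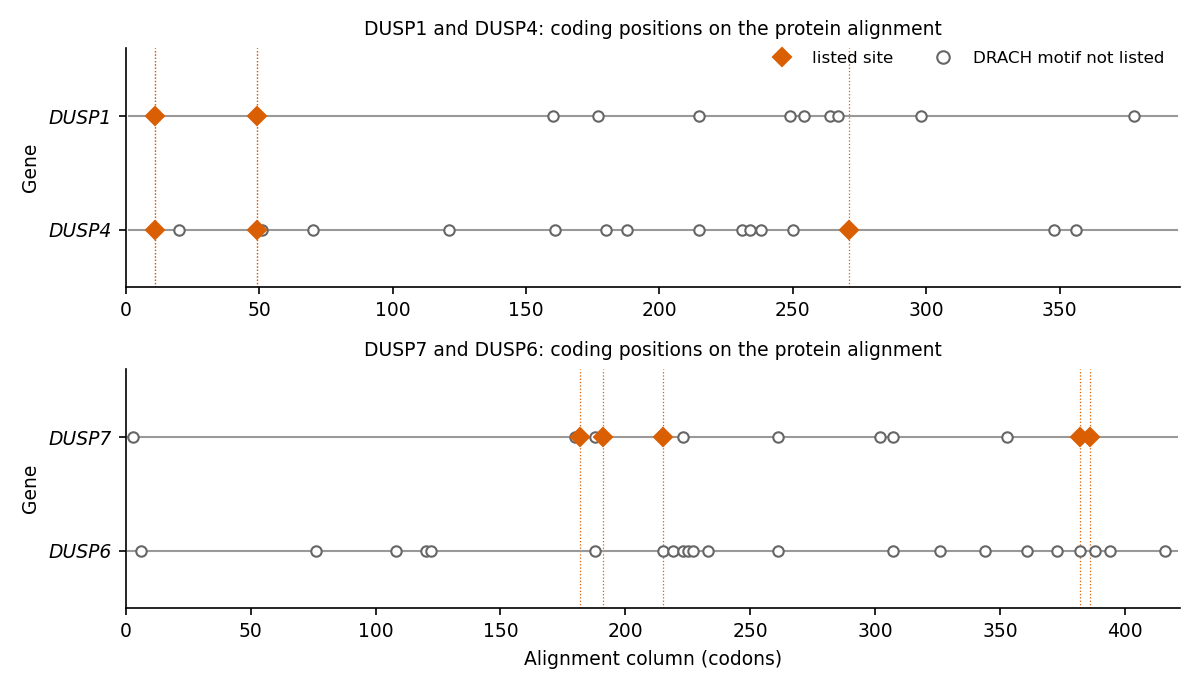
Coding sites (filled diamonds) and unlisted DRACH motifs (open circles) of DUSP1 and DUSP4, and of DUSP7 and DUSP6, along the protein alignment of each pair (x axis, alignment column in codons), with dotted lines at listed codons. Filled diamonds face each other at 2 columns of DUSP1 and DUSP4, whereas the 5 diamonds of DUSP7 face none in DUSP6; the unlisted GGACG of DUSP6 is outside DRACH and has no circle.

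SPRY4, a Sprouty protein that inhibits receptor signalling upstream of RAF, lies on chromosome 5 from 142310427 to 142326455 on the minus strand. All of its 15 sites were in the third and last exon, 5 in the coding sequence and 10 in the 3′ UTR. Of its 92 DRACH motifs 10.9% were listed, a larger share than in 67.95% of the coding host transcripts with at least 10 motifs. The coding sites scored 0.558 at codon 165, 0.906 at codon 198, 0.593 at codon 215, 0.778 at codon 237 and 0.659 at codon 302. The 2 highest of these were both GGACG. After the stop codon, 3 sites followed at 153, 196 and 225 nt, with scores of 0.574, 0.510 and 0.902, and then none for 2434 nt.

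A second group of SPRY4 sites lay 2659 to 3236 nt after the stop codon. It comprised 7 sites with scores of 0.793, 0.616, 0.538, 0.699, 0.872, 0.747 and 0.701 in 5′ to 3′ order. Sites this far from a stop codon were uncommon, since 211 of 9710 sites in the 3′ UTR of the whole list lay beyond 2500 nt, in 76 genes. Of these genes, 4 had more such sites than SPRY4, and 2 had as many, SPRY4 itself included. The limit of 2500 nt lies just below the start of the SPRY4 group. Only a 3′ UTR longer than this limit can hold such sites, and the share among such transcripts was not computed. Together with the last 2 sites of DUSP7, 9 of 31 sites in the 3′ UTR of the feedback genes (29.0%, 16.1 to 46.6) lay over 1000 nt from the stop codon, against 15.1% of the list. Without SPRY4 it was 2 of 21 (9.52%, 2.65 to 28.9), below the list, so the larger share rests on SPRY4.

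The listed pentamers of SPRY4 included many GGACG. Of its 5 GGACG pentamers 4 were listed, while over all host transcripts 6.94% of 9807 GGACG were. Of its 4 GGACT, the most frequent pentamer of the list, 0 were listed, and all 4 lie over 1000 nt after the stop codon. In that stretch 5 of the 46 DRACH motifs of SPRY4 were listed (10.9%), against 2.7% of those of host transcripts. At least 4 GGACG sites were found in 10 of the 578 genes that had any. Besides codon 198, whose window is among the highest-scoring sites, the other 3 windows are shown in GRCh38, on the minus strand, with the pentamer in capitals.
SPRY4 codon 237, chr5:142314458-142314478, score 0.778: acgaatgaGGACGatgagggc
SPRY4 3′ UTR at 2798 nt, chr5:142311403-142311423, score 0.616: gtttggctGGACGatgcctcg
SPRY4 3′ UTR at 2908 nt, chr5:142311293-142311313, score 0.699: gggatccaGGACGcttctagg
The coding copies scored above the median of GGACG in the list, which was 0.716 over 735 sites, and those in the 3′ UTR below it.

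SPRY1 and SPRY2, the closest relatives of each other among the Sprouty genes here with 59.2% of aligned residues shared, had 0 sites and 1 site. The SPRY2 site, an AGACT at codon 81 with a score of 0.717, was 1 of 45 DRACH motifs, and 0 of its 5 GGACT were listed. SPRY1 had 51 DRACH motifs with 5 GGACT. The best SPRY4 coding site, at codon 198, aligns with a GGACC in SPRY1 and with a GGCCT in SPRY2. The SPRY4 and SPRY1 stretches are shown over 10 codons in GRCh38, with the pentamer in capitals.
SPRY4, codons 193 to 202, minus strand, listed, chr5:142314572-142314601: tgtgcatccccccGGACGttgccttcctgc
SPRY1, codons 192 to 201, plus strand, not listed, chr4:123402165-123402194: tgcactgctcccaGGACCctaccatcctgt
Here 19 of 30 bases are identical, and the SPRY1 pentamer is within DRACH while the listed one is not. No SPRY4 site faced a site in another Sprouty gene.

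The coding sequences of the Sprouty genes are largely free of introns. That of SPRY1 and of SPRY2 lies in 1 exon, and that of SPRY4 in 1 exon in the Ensembl canonical transcript but in 2 in the longer one used here, where the junction is 472 nt or more from each site. Every coding DRACH motif of SPRY1 and SPRY2 is more than 100 nt from a junction, 23 in SPRY1 and 20 in SPRY2. In SPRY2 1 of them was listed, and 3 of 18 in SPRY4, against 18.2% of 25543 such motifs over all host transcripts. SPRY1 had no site and is not among the host transcripts. Of the 18 coding sites, 1 was in a transcript with 1 coding exon (5.56%, 0.988 to 25.8), against 12.5% of coding sites in the list. With the canonical transcript of SPRY4 it was 6 of 18, and the share of the list was not computed with canonical transcripts.

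SPRED2, which recruits neurofibromin to RAS, held 2 coding sites in its sixth and last exon and none in its 3′ UTR of 2650 nt. They scored 0.788 at codon 270 (GGACT) and 0.50 at codon 279 (GGACC), 27 nt apart, and the second was the lowest of all 49. Of its 87 DRACH motifs 2.30% were listed, and of its 7 GGACT 1. SPRED1, which shares 59.8% of aligned residues, had 140 DRACH motifs and no site. At the aligned codons SPRED1 has GGATG and AGACT, the latter within DRACH and not listed. The 3 genes without sites together held 263 DRACH motifs, 16 of them GGACT. Over 1000 nt after the stop codon lie 93 of the 140 motifs in SPRED1, 20 of 72 in DUSP6 and 6 of 51 in SPRY1. Over all host transcripts 2.7% of the motifs this far were listed. The reason for the absence of sites was not tested.

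DUSP4, a nuclear phosphatase of ERK and JNK, lies on chromosome 8 from 29333064 to 29350684 on the minus strand. It held 3 coding sites and 4 in the 3′ UTR. Besides the 2 sites of the first exon, the third coding site was a GGACT at codon 271 with a score of 0.817, 13 nt from an exon junction. This was the closest to a junction of all member sites, and 335 of 7010 coding sites of the list in spliced transcripts were as close or closer. The 3′ UTR sites were at 52, 80, 195 and 241 nt after the stop codon, with scores of 0.745, 0.912, 0.770 and 0.674. Its 3′ UTR goes on to 3962 nt with 63 DRACH motifs beyond 1000 nt, of which 0 were listed, near the 2.7% of such motifs over all host transcripts. DUSP1 and DUSP4 thus both had 4 sites in the first 255 nt after the stop codon, a stretch that ends at the last DUSP1 site. In the same stretch DUSP5 had sites at 4, 154 and 165 nt. DUSP7 had none there, but its only DRACH motifs in that stretch are at 97 and 228 nt.

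Over the 7 genes with sites, the regions were close to those of the whole list. In the 3′ UTR lay 31 of 49 sites (63.3%, 49.3 to 75.3), in the coding sequence 18 (36.7%, 24.7 to 50.7) and in the 5′ UTR 0. In the list these shares were 55.4%, 42.1% and 2.49%. The last exon held 85.7% of the sites, against 76.5% in the list. Within 200 nt of the stop codon lay 14 sites (28.6%, 17.9 to 42.4), against 33.3%. Each of these intervals covers the value of the list.

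Within 100 nt of an exon junction lay 3 of the 18 coding sites (16.7%, 5.84 to 39.2), against 28.8% of 7379 in the list. These were the DUSP4 site at codon 271 and the first 2 sites of DUSP7. Of the coding DRACH motifs near junctions 2 of 48 were listed (4.17%), and of those farther away 11 of 71 (15.5%). The corresponding shares over all host transcripts were 2.43% and 18.2%. In codons, 14 of the 18 sites were at the middle base (77.8%, 54.8 to 91.0), against 57.9% of coding sites in the list. The exceptions were SPRY2 codon 81, DUSP7 codon 384 and SPRY4 codons 198 and 215.

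Of all DRACH motifs in the 7 transcripts 39 of 425 were listed (9.18%, 6.79 to 12.3), and over all host transcripts 7.33%. Of GGACT, 12 of 39 were listed (30.8%, 18.6 to 46.4), against 26.0%. The share was highest in the first 200 nt after the stop codon, with 9 of 30 motifs in the feedback genes and 25.4% in all host transcripts. It fell to 7 of 151 beyond 1000 nt. Between the genes it ranged from 2.22% in SPRY2 and 2.30% in SPRED2 through 6.25% in DUSP4, 10.9% in SPRY4, 16.2% in DUSP7 and 17.2% in DUSP1 to 23.1% in DUSP5.

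**Figure D3:**
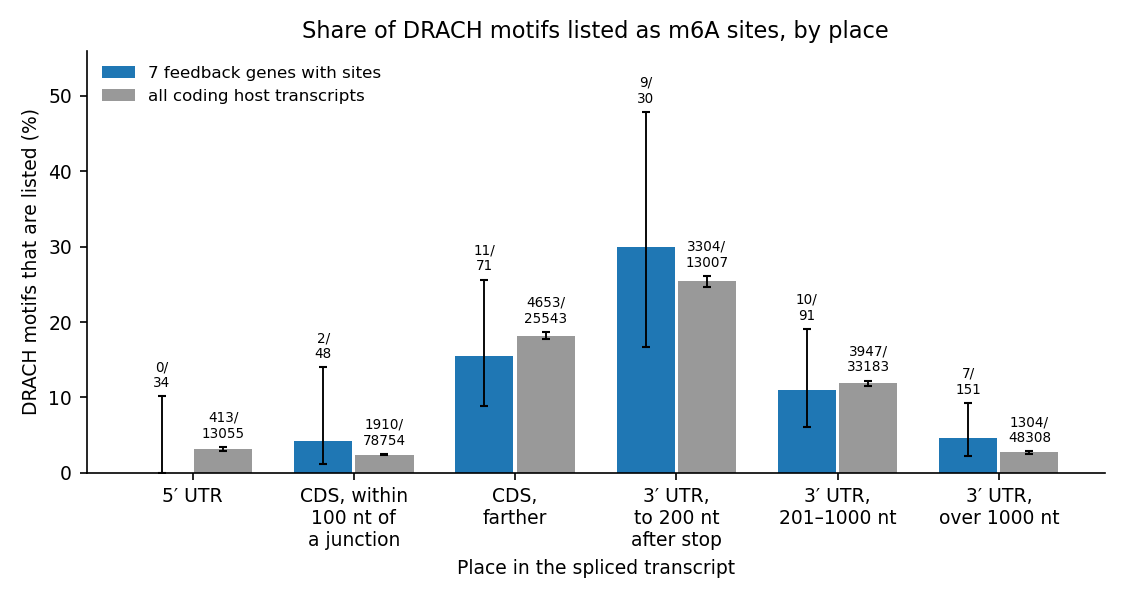
Percentage of DRACH motifs listed as sites (y axis) by place in the transcript (x axis), for the 7 feedback genes with sites and for all coding host transcripts, with 95% Wilson intervals and counts above each bar. Both sets are highest within 200 nt after the stop codon, at 30.0% and 25.4%, and in each place the interval of the feedback genes covers the value of all transcripts.

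DRACH held 39 of the 49 sites (79.6%, 66.4 to 88.5), against 88.7% of the list. Of the 10 sites outside DRACH, 7 were GGACG, in DUSP1, DUSP4, DUSP7 and SPRY4. The others were the GTACT of DUSP7, the TGAAC of DUSP5 and a GCACT of SPRY4 with a score of 0.510. GGACG thus made up 14.3% of the sites (7.10 to 26.7), against 3.91% of the list, and SPRY4 alone had 4 of the 7. Without SPRY4 it was 3 of 34 sites (8.82%, 3.05 to 23.0), an interval that covers the value of the list. Among sites outside DRACH, the share at GGACG was 7 of 10 (70.0%, 39.7 to 89.2), against 34.6% of 2125. This share also includes the 4 GGACG sites of SPRY4 and was not computed without that gene. Without SPRY4, 85.3% of the sites were at DRACH, close to the list.

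Scores of the 49 sites lay between 0.50 and 0.970. Their median was 0.745 (quartiles 0.616 and 0.872), and that of the list was 0.754 (quartiles 0.640 and 0.847). In the 3′ UTR the median was 0.747, against 0.801 in the list, and in the coding sequence 0.723 against 0.707. A score of at least 0.9 was given to 8 sites (16.3%, 8.51 to 29.0), against 11.0% of the list. These 8 belonged to DUSP1, DUSP4, DUSP5, DUSP7 and SPRY4. Compared with sites of the same pentamer, 23 of the 49 scored above the median of the list.

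**Figure D4:**
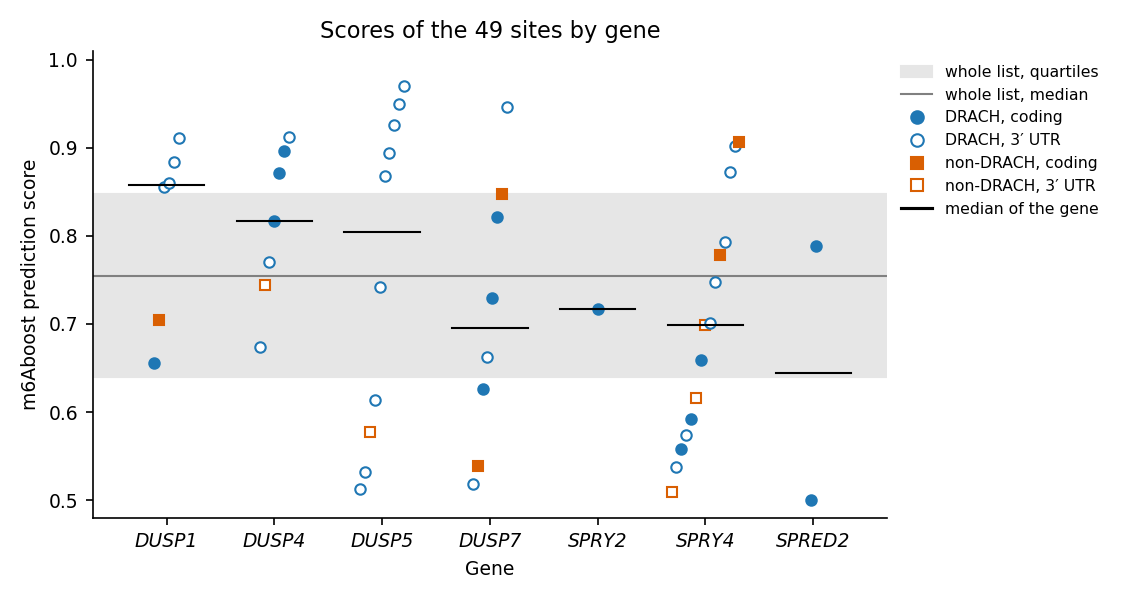
Prediction score (y axis, from the threshold of 0.5 upward) of each of the 49 sites by gene, with filled symbols for coding sites, open symbols for the 3′ UTR, squares for sites outside DRACH and black lines at gene medians; the grey band and line are the quartiles and median of all 18789 sites. The gene medians run from 0.644 in SPRED2 to 0.858 in DUSP1, and the SPRY4 square at 0.906 stands above the band.

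Medians by gene ran from 0.644 in SPRED2 and 0.696 in DUSP7 to 0.817 in DUSP4 and 0.858 in DUSP1. The ranges overlapped, since the lowest sites of DUSP5, DUSP7 and SPRY4 scored 0.513, 0.518 and 0.510. Neighbouring sites of 1 gene were at most 50 nt apart in 12 of 42 cases (28.6%, 17.2 to 43.6), against 32.3% in the list.

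The remaining pathway was examined through a list of 39 genes, 17 of which had sites, 87 in all, beside 19.7% of all protein-coding genes with a site. Among the transcriptional outputs of ERK, 5 of 6 genes had sites, with 10 in IER3, an immediate early response gene, and 8 in FOSL1, a FOS-related transcription factor. Among RAS, RAF, MEK, ERK and their direct partners, 7 of 15 had sites. Among receptors, adaptors and RAS regulators, 3 of 10 had sites, with 9 in SHC1 and 8 in FGFR1, and among the other DUSP, SPRY and SPRED genes 2 of 8, with 3 in SPRED3 and 1 in DUSP3. The shares of the last 2 of these groups are near the 19.7%. That background covers all 20020 annotated protein-coding genes, expressed or not. NF1, which encodes neurofibromin, had none. In this wider set, as in the feedback genes, genes with many sites stood beside close relatives with none.

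The label of the cells could be compared only with the presence of sites. Of 7 thyroid follicular genes, PAX8 and TG included, none had a site. Of 4 epithelial genes KRT8 and KRT18 had 1 and 2 sites, and of 3 mesenchymal genes VIM and FN1 had 6 and 2. For comparison, 19.7% of all annotated protein-coding genes, expressed or not, had a site. With so few genes in each group, nothing about the cells was concluded from these counts. A list of sites does not measure RNA levels, so the thyroid origin could not be checked.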

How the data were processed

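miCLIP2 had been performed on poly(A)+ RNA of untreated C643 cells. Reads were aligned to GRCh38.p12 with STAR 2.7.3a and handled with UMI-tools 1.0.0, SAMtools 1.9 and bedtools 2.27.1, per the submitters' processing notes. By the study's methods, PureCLIP peaks found in more than 1 replicate were assigned to GENCODE release 31 genes, and peaks at A were classified by m6Aboost from the 21-nt sequence, transcript region, C-to-T transitions and relative signal strength. Region and motif are thus inputs of the score. The deposited value of each site is this prediction score, a fraction from 0 to 1. The list pools the replicates, so the reads behind a site are unknown, and read totals per library were not used here.

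Positions are given 1-based. Exons came from GENCODE release 44, and regions from the longest transcript of each gene whose transcript support level, if stated, was at most 3 and whose annotation level was at most 2. Motifs were searched on the strand of the transcript only. Proteins were translated from these transcripts and aligned globally (BLOSUM62, gap open 10, extend 0.5). Placement was tested on simulated data, where 4200 of 4200 planted positions in 210 transcripts were returned to their offset and region. Python 3.11.15, numpy 2.4.6, scipy 1.17.1, Biopython 1.88, pysam 0.24.0 and matplotlib 3.10.9 were used. No test was run, since there was 1 group and no value per replicate.

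The genes, gene lists and comparisons were chosen with earlier results of these data known. The rule for naming took, for each gene, the highest and lowest site, all sites outside DRACH, the coding sites of genes with 1 coding exon, all pairs at aligned codons, and the pathway genes with the most sites, of which FGFR1 and FOSL1 tied. Other sites, pathway genes and counts were named after their values were seen. Alternatives changed the score threshold, transcripts, windows, motif and the genes used.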

Additional observations from a re-analysis of the deposited data

How the results depend on the processing

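Over 15 results, 40 alternatives were tried, and 29 left the value within its counting interval or within 1.5 times its count. The remaining 11 did not. With a score of at least 0.7 there were 30 sites in place of 49, a listed share of DRACH motifs of 5.88%, and 1 place at aligned codons of DUSP1 and DUSP4 in place of 2. The listed share was 30.8% for GGACT alone and 5.67% over all 10 transcripts. Widening the stop codon window to 400 nt gave 44.9% of sites, and RAC in place of DRACH gave 93.9%. With Ensembl canonical transcripts, 33.3% of coding sites were in transcripts with 1 coding exon. Neighbours were 7.14% at most 20 nt apart, and 15.6% at most 50 nt apart among DRACH sites alone. Without SPRY4, an alternative chosen after seeing the data, 9.52% of 3′ UTR sites lay over 1000 nt from the stop codon, in place of 29.0%. The 7 genes with sites kept at least 1 site at a score of 0.7. No paired analysis was possible because all replicates of the only group are pooled into 1 list, and for the same reason no replicate could be left out. Genes with few reads cannot give peaks, and reads per site were not analysed here, so the absence of a site is not evidence of an unmethylated transcript.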
